A study of Homo sapiens with 24 samples.

Results

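The comparison asked whether 4 days of the menin inhibitor MI-503 changed each gene to the same extent in MOLM13, a leukaemia line with an MLL fusion, and in OCI-AML3, a line with mutant NPM1. It used 12 of the 24 RNA-seq libraries of the series, 3 per group. MOLM13 and OCI-AML3 cells, both established human acute myeloid leukaemia lines, had each received 2.5 µM MI-503 or the vehicle DMSO for 4 days in liquid culture. MOLM13 carries a fusion of MLL (KMT2A) with MLLT3 and an internal tandem duplication in FLT3. OCI-AML3 carries mutant NPM1 and an unfused MLL gene. Of 25680 genes in the tables, 13023 were tested, namely those that reached a normalised value of 10 in 3 or more libraries of each line. For each gene the log2 ratio of MI-503 to DMSO was taken within each line, and the OCI-AML3 value was subtracted from the MOLM13 value. A positive difference means a higher ratio in MOLM13, whether from a larger rise there or a larger fall in OCI-AML3. The remaining libraries came from MV411, a further MLL-fusion line, and its 6 DMSO and MI-503 libraries are set beside the result for reference.

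Menin is a scaffold protein, encoded by MEN1, that holds MLL proteins and MLL fusion proteins at the promoters of HOXA genes, MEIS1 and other genes that keep myeloid progenitors immature. MI-503 occupies the pocket of menin that binds MLL. In leukaemia with mutant NPM1 the normal MLL protein supports HOX and MEIS1 expression through the same contact, and loss of that expression is known to let leukaemic blasts mature along the monocytic and granulocytic lineages.

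MOLM13 libraries held 23281330 to 27240357 reads on genes and OCI-AML3 libraries 44364964 to 72994481. The deviation of each gene from its group mean was taken in each library. The SD of these deviations over the genes of a library was 0.116 to 0.134 on the log2 scale in MOLM13 and 0.079 to 0.111 in OCI-AML3. Replicates differed by more than counting error in all 12 pairs, the chi-square divided by its degrees of freedom being 1.62 to 9.44. MI-503 replicate 1 stood apart in both lines, at 9.44 and 9.22 against its OCI-AML3 partners and 4.50 and 3.86 against its MOLM13 partners. Without that OCI-AML3 library 4281 genes were called higher in MOLM13 and 3978 lower, and without that MOLM13 library 4162 and 4045, against 4213 and 3972 with all 12. Among the OCI-AML3 DMSO libraries replicate 3 stood at 4.68 and 4.02 against its partners, which differed from each other by 2.62, and without it the counts were 3998 and 3757. The labels call the samples biological triplicates and do not say how the cultures were separated, so p-values measure only the spread between these libraries. All 11 myeloid identity genes had reads in every group, summing to 1160 to 1200 RPM, meaning reads per 1000000 reads on genes, in MOLM13 with DMSO and 1790 to 1950 with MI-503, and to 2960 to 2990 and 2840 to 2910 in OCI-AML3. Erythroid and megakaryocytic, B-cell, and epithelial and fibroblast markers summed to at most 54.6 RPM in any of these 4 groups, and the T and NK cell sum of 125 to 435 RPM was mostly CD4, which myeloid cells also carry. The T and NK sum went from 275 to 284 with DMSO to 399 to 435 with MI-503 in MOLM13 and from 125 to 127 to 127 to 135 in OCI-AML3, with 6 and 8 of 12 listed genes without a read in MOLM13, and its part in the results was not tested. In bulk RNA, fewer cells of a type and less RNA per cell cannot be told apart.

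The drug's target gene differed little. MEN1 fell in MOLM13 (log2 ratio -0.21, adjusted p = 0.000979) and stood at -0.0013 in OCI-AML3 (adjusted p = 0.984), a difference of -0.21 ± 0.07 (SE, adjusted p = 0.0123) that did not pass on the deposited scale (-0.58, adjusted p = 0.0927, against a median of all genes of -0.37). KMT2A, whose reads include those of the fusion transcript, stood at -0.11 and -0.25, and NPM1 at -0.14 and -0.15. Their differences of 0.14 ± 0.10 (adjusted p = 0.225) and 0.0026 ± 0.034 (adjusted p = 0.953) did not pass, although that of KMT2A did without MOLM13 MI-503 replicate 1 (0.25, adjusted p = 0.00157). MI-503 blocks a protein contact, and these RNA levels do not measure its action.

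The MI-503 effect differed between the lines for many genes, mostly by less than 2-fold. The difference passed an adjusted p of 0.05 for 8185 genes, of which 4213 (32.4% of those tested) were higher in MOLM13 and 3972 (30.5%) lower. Differences of at least 2-fold were fewer, with 808 genes higher in MOLM13 (6.2%) and 361 lower (2.77%), a balance that turned to 423 higher and 973 lower on the deposited scale. MI-503 raised 4089 genes (31.4%) and lowered 4157 (31.9%) in MOLM13, and it raised 4215 (32.4%) and lowered 4276 (32.8%) in OCI-AML3. Among the 5700 genes called in both lines, 3395 moved the same way and 2305 moved in opposite ways, and every one of the latter also passed the test of the difference. These comprised 1203 genes (9.24%) that rose in MOLM13 and fell in OCI-AML3 and 1102 (8.46%) that did the reverse. Where the opposite changes were at least 2-fold in each line they were mostly rises in MOLM13, 50 genes against 7. The ratios of the lines correlated weakly across the 13023 genes (Pearson 0.19, Spearman 0.157), as a description over genes that share the same 12 libraries. A low correlation was not particular to this pair. The ratios of MV411, taken at 3 days, correlated with those of MOLM13 at 0.272 and of OCI-AML3 at 0.25 (Pearson, 12540 genes). Values here are limma estimates on log2(normalised value + 1), which understate changes of low genes, with Benjamini-Hochberg adjustment over all genes tested and 3 libraries per group. They are relative to the median gene of each line. On the scale the submitters deposited, named for a spike-in, the median ratio was -0.54 in MOLM13 and -0.16 in OCI-AML3, and the median difference was -0.37. There 619 genes (4.75% of those tested) were called higher and 2599 (20.0%) lower, the background for list counts on that scale. Higher differences made up 19.2% of calls in place of 51.5%. MOLM13 rises smaller than about 0.5 on the log2 scale are at or below 0 on that scale, and deposited-scale counts are therefore given for the lists described in most detail.

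**Figure D1:**
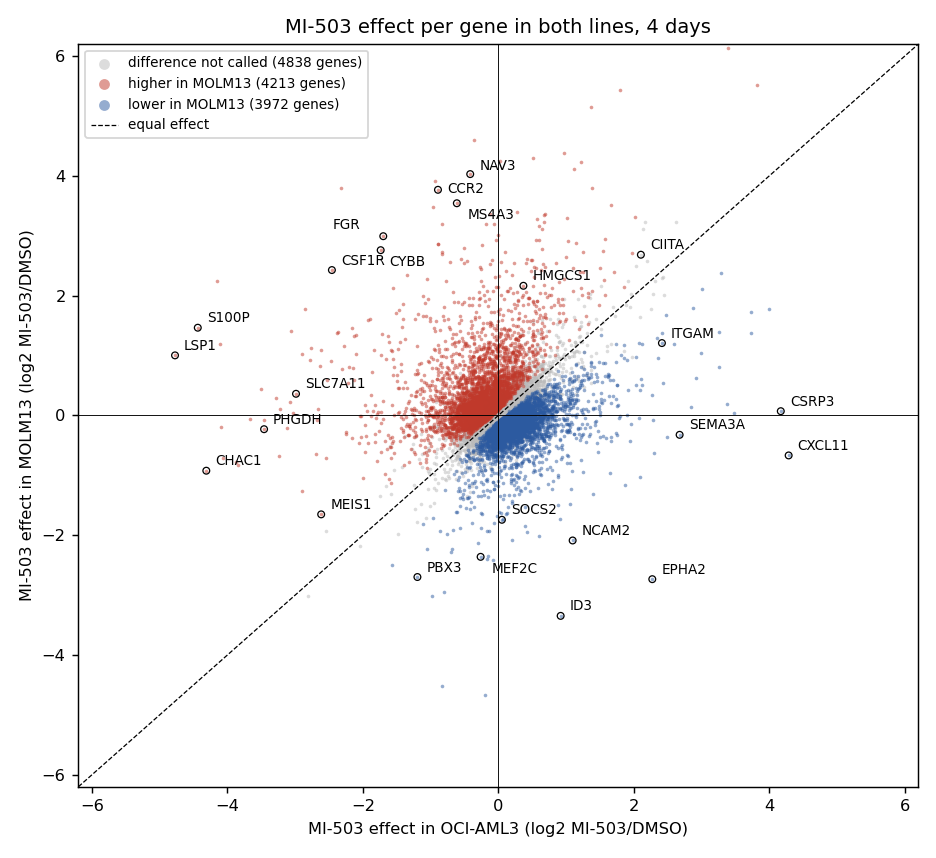
Each point is 1 of 13023 genes, with its MI-503 to DMSO log2 ratio in OCI-AML3 on the horizontal axis and in MOLM13 on the vertical axis. Red and blue points passed the test of the difference (4213 higher and 3972 lower in MOLM13), grey points did not, the dashed line marks equal ratios, and the circled genes are described in the text. CSF1R, FGR and CYBB sit at the upper left, raised in MOLM13 and lowered in OCI-AML3, and EPHA2 and ID3 at the lower right.

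Monocyte and macrophage genes rose in MOLM13 and not, as a group, in OCI-AML3. Of 23 tested genes of that list, 21 rose and none fell in MOLM13, with a median log2 ratio of 1.21 (all genes: -0.012), whereas in OCI-AML3 9 rose and 12 fell, with a median of -0.17 (all genes: -0.004). The difference was higher in MOLM13 for 17 members and lower for 2, where 32.4% and 30.5% of all genes passed, and its median was 1.17 (all genes: 0.004). The 10 members CSF1R, CCR2, CYBB, TLR4, S100A8, S100A9, TLR2, MNDA, CX3CR1 and NCF4 passed in opposite directions, rising in MOLM13 and falling in OCI-AML3. With deposited values 14 members rose and 1 fell in MOLM13, 4 rose and 9 fell in OCI-AML3, and 13 differences were higher and 1 lower.

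CSF1R (chr5:150053295-150113365, GRCh38.p14), the receptor for macrophage colony-stimulating factor, rose from normalised values of 154, 201 and 211 with DMSO to 998, 1016 and 1013 with MI-503 in MOLM13. In OCI-AML3 it fell from 1012, 995 and 965 to 195, 206 and 143.5. The MI-503 libraries of each line lay wholly outside its DMSO libraries, above them in MOLM13 and below them in OCI-AML3. How many of all tested genes separate by treatment in this way was not counted, so such separations, here and below, are descriptive only. This was a 5.37-fold rise against a 5.49-fold fall, and a difference of 4.88 ± 0.17 on the log2 scale (SE, adjusted p = 5.93e-14). In RPM, which adjusts for depth alone, CSF1R went from 7.39 to 39.4 in MOLM13 and from 16.5 to 3.14 in OCI-AML3. The line with the higher CSF1R RPM before treatment thus had the lower one afterwards. Levels in RPM between the lines, here and below, carry a limit. All listed histone genes were higher in OCI-AML3 with DMSO, for example HIST1H2BC at 241 RPM against 0.539 in MOLM13. Whether library preparation differed between the lines was not tested. CCR2 (chr3:46354111-46360940), the chemokine receptor that brings monocytes out of the marrow, rose from 151, 219 and 182 with DMSO to 2296, 2582 and 2604 with MI-503 in MOLM13. Its OCI-AML3 values were 2484.5, 2615 and 2390.4 and then 1333, 1360.2 and 1338. It rose 13.6-fold in MOLM13 and fell 1.86-fold in OCI-AML3 (difference 4.66 ± 0.13, adjusted p = 2.39e-15). FGR (chr1:27612064-27635185), a Src-family kinase of myeloid cells, went from 14.9, 12.8 and 25.3 to 145, 143 and 138 in MOLM13 and from 708, 767 and 742.5 to 229, 238 and 214 in OCI-AML3. Its groups did not overlap within either line, and the difference was 4.69 ± 0.23 (adjusted p = 1.11e-11).

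CYBB (chrX:37780059-37813461), the catalytic subunit of the phagocyte NADPH oxidase, showed the same opposition from very unlike starting levels. It had 115, 123 and 133 with MI-503 against 10.3, 22.7 and 22.3 with DMSO in MOLM13, and 15382, 14919.8 and 15055 against 49766.5, 50671 and 50818 in OCI-AML3. The difference was 4.50 ± 0.25 (adjusted p = 4.84e-11). In RPM the rise in MOLM13 ended at 4.83 and the fall in OCI-AML3 at 261, so the lines stayed far apart in level. Other oxidase subunits differed in the same direction by less. NCF4 stood at 0.44 in MOLM13 and -0.24 in OCI-AML3, though below 0 in both lines as deposited. NCF1, whose reads could be shared with its pseudogene copies, stood at -0.01 in MOLM13 and fell by 0.98 in OCI-AML3. S100A8, a subunit of calprotectin, had values of 95.2, 107.5 and 99.3 with DMSO against 391, 457 and 665 with MI-503 in MOLM13 and 1586, 1449.9 and 1619 against 729.7, 776 and 733 in OCI-AML3. MOLM13 MI-503 libraries spread more than the others but lay above all 3 DMSO libraries. The difference was 3.33 ± 0.18 (adjusted p = 2.96e-11), and its partner S100A9 differed by 1.90 (adjusted p = 1.91e-10).

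The pattern receptors TLR4 and TLR2 stood at 2.58 in MOLM13 and -0.46 in OCI-AML3 and at 0.98 in MOLM13 and -0.37 in OCI-AML3, and MNDA, a nuclear antigen of myeloid differentiation, at 2.52 in MOLM13 and -0.13 in OCI-AML3. CX3CR1, the fractalkine receptor, stood at 2.00 in MOLM13 and -0.21 in OCI-AML3. CD36, a scavenger receptor, and LYZ, which encodes lysozyme, rose in both lines and more in MOLM13: CD36 by 2.54 and 0.23, LYZ by 1.80 and 0.65 (differences 2.31, adjusted p = 2.59e-13, and 1.15, adjusted p = 3.08e-10). LYZ values were 4703, 4655 and 4777 with DMSO against 14929, 15900.1 and 18667 with MI-503 in MOLM13 and 30873, 30961 and 31697 against 49778, 48739.8 and 48702 in OCI-AML3, with no overlap between treatments in either line. Not every monocytic gene followed MOLM13. ITGAM (chr16:31259975-31332877), the CD11b integrin chain that is often read as a sign of maturation, rose in both lines and more in OCI-AML3. Its values went from 358.5, 351 and 379.9 with DMSO to 907, 798 and 817 with MI-503 in MOLM13, and were 209, 229.8 and 197.5 against 1059, 1138 and 1201 in OCI-AML3. The rise was 2.31-fold against 5.33-fold (difference -1.21 ± 0.10, adjusted p = 1.20e-08). ITGAX, the CD11c integrin chain, rose by 1.55 in MOLM13 and 1.55 in OCI-AML3, a difference of 0.01 ± 0.14 (adjusted p = 0.971). IRF8, CD68 and FCGR1A also did not pass the difference (adjusted p = 0.605, 0.334 and 0.101).

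**Figure D2:**
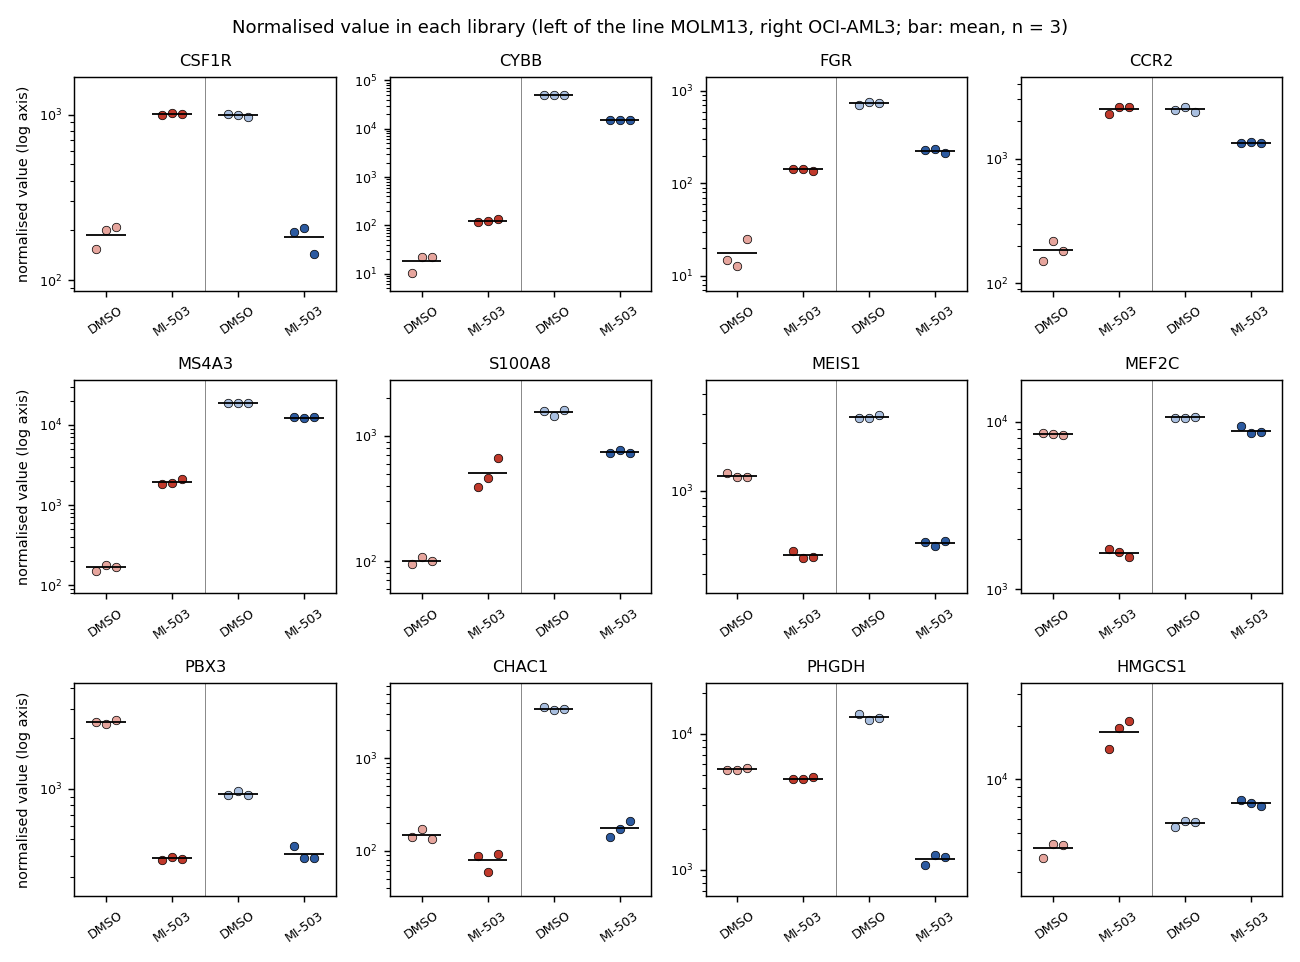
Normalised value of 12 genes in each library on log axes whose range differs by gene, MOLM13 left and OCI-AML3 right of the grey line, light points DMSO, dark points MI-503, bars the mean of 3 libraries. Values are set within each line's table, so treatments are comparable and levels between lines are not. CSF1R rises to about 1000 in MOLM13 and falls from about 1000 in OCI-AML3, while PHGDH and CHAC1 drop further in OCI-AML3 and MEF2C further in MOLM13.

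Granulocytic genes gave no common direction of difference. In MOLM13 7 of 9 tested members rose and 2 fell, and in OCI-AML3 5 rose and 3 fell. The difference was higher in MOLM13 for 5 and lower for 3 (median 0.52), where 32.4% and 30.5% of all genes passed. As deposited, 3 rose and 2 fell in MOLM13, 2 rose and 0 fell in OCI-AML3, and 3 differences were higher and 3 lower. MPO, the myeloperoxidase of primary granules, went from 667.5, 773 and 828 to 2028.5, 1799.9 and 1814 in MOLM13 and from 87.3, 74.4 and 111 to 67.6, 72.2 and 80.6 in OCI-AML3. It rose 2.49-fold in MOLM13 and fell 1.22-fold in OCI-AML3, where its DMSO and MI-503 ranges overlapped (29.6 against 1.51 RPM with DMSO), and the difference was 1.60 ± 0.17 (adjusted p = 2.15e-07). BPI, a bactericidal granule protein, rose by 3.52 and 1.66. CEBPA, the transcription factor of the granulocytic lineage, and CSF3R, the receptor for granulocyte colony-stimulating factor, stood at 0.53 in MOLM13 and -0.30 in OCI-AML3, the MOLM13 value of CEBPA being level as deposited, and at 1.00 in MOLM13 and -0.28 in OCI-AML3. The serine proteases AZU1 and ELANE did the opposite, with -0.21 in MOLM13 and 0.53 in OCI-AML3 for AZU1 and -0.27 in MOLM13 and 0.23 in OCI-AML3 for ELANE (differences -0.74 and -0.49, adjusted p = 1.47e-07 and 0.000101).

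The largest differences of all included genes outside these lists. Among genes with a group mean of at least 100 whose MI-503 libraries, each taken relative to its line's DMSO mean, did not overlap between the lines (as held for 73.6% of all tested genes, 9590, at any level), the largest difference was that of S100P, a calcium-binding protein. It had 102, 89.0 and 104 with MI-503 against 32.7, 44.4 and 29.4 with DMSO in MOLM13, and 6.50, 16.5 and 5.63 against 234, 211 and 177 in OCI-AML3, a 2.76-fold rise against a 21.7-fold fall (difference 5.90 ± 0.39, adjusted p = 5.17e-10). LSP1, an actin-binding protein of leukocytes, moved mainly in OCI-AML3, from 1785, 1946 and 1977 to 89.7, 58.8 and 61.0, while in MOLM13 it went from 55.1, 60.2 and 57.7 to 109, 119.8 and 121 (difference 5.78 ± 0.18, adjusted p = 2.13e-14). NAV3, a neuron navigator protein, moved mainly in MOLM13, from 39.2, 38.5 and 41.5 to 640.2, 727 and 626, a 16.3-fold rise, against 50027.5, 49806.5 and 52606 against 39814.5, 37293 and 37150.1 in OCI-AML3 (difference 4.44 ± 0.07, adjusted p = 7.41e-18). NAV3 stayed far higher in OCI-AML3, at 658 RPM with MI-503 against 26 in MOLM13. MS4A3, a membrane protein of granulocyte and monocyte progenitors, likewise rose from 150.3, 180.5 and 167 to 1822, 1870.2 and 2136 in MOLM13 and went from 18911, 18734 and 19004 to 12454, 12087 and 12486.5 in OCI-AML3 (difference 4.15 ± 0.08, adjusted p = 6.10e-17). PDYN, the prodynorphin gene, CR1, a complement receptor, ADAM28, a membrane metalloprotease, and HSPA7, which shares sequence with HSPA6 so that reads could be split between them, were the others of the 12 genes with the largest positive differences, at 4.85, 4.44, 4.64 and 4.47. In MOLM13 with DMSO, PDYN and CR1 had no more than 7 reads per library. They reached the minimum value in that line through MI-503 libraries alone, so their place here depends in part on the filter. ALDH2, the mitochondrial aldehyde dehydrogenase, and FCGR2B, an inhibitory Fc receptor whose reads could be shared with FCGR2A and FCGR2C, also changed at least 2-fold in opposite directions, with 1.60 in MOLM13 and -1.92 in OCI-AML3 for ALDH2 and 1.61 in MOLM13 and -1.90 in OCI-AML3 for FCGR2B.

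Genes that were lower in MOLM13 were led by EPHA2 (chr1:16124337-16156069), a receptor tyrosine kinase for ephrins. It had 1.01, 2.20 and 0.00 with MI-503 against 10.3, 12.8 and 11.1 with DMSO in MOLM13, and 284, 302 and 301 against 60.6, 67.0 and 54.3 in OCI-AML3. MOLM13 held 35 EPHA2 reads with DMSO and 3 with MI-503, a fall of 11.1-fold with a 95% interval of 3.51 to 56.5 that covers counting error only. OCI-AML3 rose 4.83-fold, and the fitted difference was -5.01 ± 0.43 (adjusted p = 2.00e-08). EPHA2, like ID3 below, reached the minimum value of 10 in MOLM13 through its DMSO libraries alone. The place of both genes in this ranking therefore depends in part on that filter. CXCL11, an interferon-inducible chemokine, went from 79.0, 86.8 and 65.2 to 1539, 1506 and 1481 in OCI-AML3, a 19.5-fold rise, and from 48.5, 55.2 and 38.5 to 28.2, 31.9 and 27.5 in MOLM13, a 1.59-fold fall (difference -4.95 ± 0.19, adjusted p = 4.53e-13). ID3, an inhibitor of E proteins, fell from 53.2, 46.4 and 54.7 to 6.05, 5.49 and 1.97 in MOLM13 and rose from 199, 211 and 199 to 356, 386 and 414.5 in OCI-AML3 (difference -4.27 ± 0.33, adjusted p = 4.17e-09). Its relative ID1 stood at -0.92 in MOLM13 and 1.09 in OCI-AML3. CSRP3, a muscle LIM protein, FAT1, an atypical cadherin, SEMA3A, a secreted semaphorin, and PCDH7, a protocadherin, rose in OCI-AML3 by 4.17, 3.48, 2.67 and 2.50. In MOLM13, SEMA3A fell by 0.32, while CSRP3, FAT1 and PCDH7 stood at 0.07, 0.04 and -0.37 without passing. NCAM2, a neural cell adhesion molecule, fell from 922, 933 and 935 to 231, 197 and 228 in MOLM13 and rose from 241, 252 and 265 to 569.7, 519 and 534 in OCI-AML3, without overlap in either line (difference -3.18 ± 0.10, adjusted p = 2.28e-14). DLX3, a homeobox gene, TYRP1, a melanosome enzyme, PHLDB3 and GEM, a small GTP-binding protein, had opposite changes of at least 2-fold in each line too, with differences of -2.30, -3.12, -3.03 and -2.71. NFIA, a nuclear factor I gene, differed by -2.92 from very unlike levels, 11.6 RPM in MOLM13 and 0.0635 in OCI-AML3 with DMSO. GEM had a mean of 6.84 with MI-503 in MOLM13, below the minimum value of 10, and NFIA was near the floor in OCI-AML3 with DMSO. The differences of GEM and NFIA may therefore depend in part on that filter too.

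The genes that menin and MLL fusions are known for were, relative to the median gene, called higher and lower in MOLM13 in equal number. All tested genes were also split nearly evenly, with 32.4% higher and 30.5% lower. The even split is therefore not a result about these targets. Of 23 tested targets outside the HOX clusters, 16 fell and 5 rose in MOLM13 (median -0.33) and 18 fell and 2 rose in OCI-AML3 (median -0.57). Of all genes, 31.9% fell in MOLM13 and 32.8% in OCI-AML3. The difference was higher in MOLM13 for 10 and lower for 10, with a median of 0.06 that turned to -0.001 with equal library totals. On the deposited scale the median was -0.31 (all genes: -0.37), and 1 difference was higher and 7 were lower. Of all genes, 4.75% were higher and 20.0% lower on that scale. MEIS1 (chr2:66435125-66573869), the homeobox cofactor of HOXA9, fell in both lines and further in OCI-AML3. Its values went from 1287.5, 1215 and 1226 with DMSO to 420.4, 379 and 385.5 with MI-503 in MOLM13, and were 2855, 2857 and 2959 against 477, 452 and 483 in OCI-AML3. This was a 3.14-fold against a 6.13-fold fall (difference 0.96 ± 0.07, adjusted p = 1.83e-09). Before treatment the lines had 48.7 and 48 RPM of MEIS1, and afterwards 15.4 and 8.13. PBX3 (chr9:125747373-125967377), the partner that stabilises MEIS1, fell further in MOLM13, from 2506, 2425 and 2589.6 to 378, 394.5 and 383.5, than in OCI-AML3, from 921, 977 and 915 to 458, 385 and 387 (difference -1.50 ± 0.09, adjusted p = 7.99e-11). MEF2C (chr5:88717117-88904105), a transcription factor of leukaemia stem cells, fell 5.14-fold in MOLM13, from 8608, 8446 and 8382 to 1740.1, 1656 and 1557, and 1.2-fold in OCI-AML3, from 10494, 10585 and 10739.5 to 9396, 8509 and 8643.5 (difference -2.10 ± 0.06, adjusted p = 1.81e-15). SOCS2, a suppressor of cytokine signalling, fell 3.35-fold in MOLM13, from 5628, 5655 and 5618 to 1777, 1627 and 1647, and stood at 254, 263 and 281 against 268, 301 and 259 in OCI-AML3, where the groups overlapped and the change did not pass (adjusted p = 0.447). The line difference for SOCS2 was -1.79 ± 0.08 (adjusted p = 3.68e-12). JMJD1C, CPEB2 and IKZF2 also fell further in MOLM13, with differences of -1.08, -1.24 and -1.06.

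On the other side, BCL2 (chr18:63123346-63320090), the apoptosis inhibitor, fell 2.04-fold in OCI-AML3, from 15734, 15721.5 and 15733.5 to 7686, 7719 and 7670.1, and by 0.08 on the log2 scale in MOLM13, from 3171, 3084 and 3184 to 2818, 3114 and 2996, where the ranges overlapped. The difference was 0.95 ± 0.04 (adjusted p = 4.42e-12). FLT3, the receptor kinase that is mutated in MOLM13, fell in both lines, by 0.61 and 1.07, and CDK6, the cell cycle kinase, by 0.93 and 0.63 (differences 0.46, adjusted p = 8.87e-08, and -0.31, adjusted p = 3.17e-05). CDKN2C, RUNX2 and RUNX1 fell by 1.62, 1.32 and 0.66 in OCI-AML3, against -0.33, -0.33 and 0.07 in MOLM13 (differences 1.29, 0.99 and 0.73). MYB, the progenitor transcription factor, rose by 0.37 in MOLM13 (below 0 as deposited) and fell by 0.24 in OCI-AML3, and MYC moved the other way by less, with -0.18 in MOLM13 and 0.11 in OCI-AML3, both below 0 as deposited (differences 0.61, adjusted p = 4.07e-10, and -0.29, adjusted p = 0.00013). As deposited, the differences of MEIS1, BCL2, FLT3, MYB and MYC no longer passed (0.59, 0.58, 0.09, 0.24 and -0.66, adjusted p = 0.0912, 0.0906, 0.819, 0.503 and 0.0501), while those of PBX3, MEF2C and SOCS2 did.

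All 11 HOXA genes were tested, and they did not move together. In MOLM13 8 fell and 2 rose, in OCI-AML3 7 fell and 0 rose, and the difference was higher in MOLM13 for 3 and lower for 3 (median -0.10), near the 32.4% and 30.5% of all genes. Without OCI-AML3 DMSO replicate 2 the count of lower differences was 1, and on the deposited scale 0 were higher and 3 lower. HOXA9 (chr7:27162438-27165537), the member most tied to these leukaemias, fell in both lines. It went from 1882, 1922 and 1814.5 to 1499, 1555 and 1403 in MOLM13, a 1.26-fold fall, and from 5166, 5113 and 5142 to 3971, 4046.5 and 4167.5 in OCI-AML3, a 1.27-fold fall. The difference was 0.01 ± 0.05 (adjusted p = 0.94). HOXA10 rose slightly in MOLM13 and fell in OCI-AML3 (0.08 and -0.48), as did HOXA13 (0.25 and -0.67), the MOLM13 values of both being below 0 as deposited, and HOXA3 and HOXA4 fell in MOLM13 by 0.81 and 1.63, with 0.27 and 0.03 in OCI-AML3. HOXA4 was low in OCI-AML3, with values of 7.35, 17.4 and 13.8 against 10.4, 19.6 and 9.38. In the deposited scaling the differences of HOXA10 and HOXA13 did not pass (adjusted p = 0.609 and 0.113), and overlapping HOXA9 and HOXA10 transcripts could not be separated, since the sources used here do not state how strand was counted. Among 21 genes of the menin and MLL complexes, 4 differences were higher in MOLM13 and 9 lower. DOT1L, a histone methyltransferase recruited by MLL fusions, stood at -0.48 in MOLM13 and 0.17 in OCI-AML3, and AFF1, a fusion partner of MLL, at -0.75 in MOLM13 and -0.05 in OCI-AML3.

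Genes of the ATF4 response fell in OCI-AML3 far more than in MOLM13. ATF4 is the transcription factor that turns on amino acid transport, serine synthesis and aminoacyl-tRNA synthetase genes when amino acids are short or the unfolded protein response is active. All 24 tested members fell in OCI-AML3 (median -1.37), whereas in MOLM13 18 fell and 3 rose (median -0.30). Of all genes, 32.8% fell in OCI-AML3 and 31.9% in MOLM13. The difference was higher in MOLM13 for 23 of 24 and lower for 0, where 32.4% and 30.5% of all genes passed. Its median was 1.15. Of the 20 members matched to a RefSeq promoter, 6 held the letters TGATGNAAN of the C/EBP-ATF composite element, searched on both strands from 250 bases before to 50 after the start. That is 30.0% of the members, where 4.45% of 27305 genes and 3.61% of 35116 windows hold it. The members with the letters were AARS, ASNS, ATF3, CHAC1, GARS and SLC3A2. A match describes these letters and is not evidence of binding. The members were listed as genes of the ATF4 response, so the share describes the list. It does not bear on the difference between the lines. The 250 bases before the start of the 3 shown here (RefSeq, GRCh38.p14) are printed 5′ to 3′ on the gene's strand with the element in capitals, because these genes run from a fall in both lines to one that passed in OCI-AML3 and not in MOLM13.
CHAC1 promoter, chr15:40953221-40953470, plus strand: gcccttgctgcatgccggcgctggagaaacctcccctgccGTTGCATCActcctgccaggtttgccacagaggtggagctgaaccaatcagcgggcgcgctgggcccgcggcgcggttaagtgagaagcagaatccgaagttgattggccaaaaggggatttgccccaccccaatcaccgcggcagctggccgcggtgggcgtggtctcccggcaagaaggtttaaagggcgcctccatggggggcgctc
ASNS promoter, chr7:97872409-97872658, minus strand: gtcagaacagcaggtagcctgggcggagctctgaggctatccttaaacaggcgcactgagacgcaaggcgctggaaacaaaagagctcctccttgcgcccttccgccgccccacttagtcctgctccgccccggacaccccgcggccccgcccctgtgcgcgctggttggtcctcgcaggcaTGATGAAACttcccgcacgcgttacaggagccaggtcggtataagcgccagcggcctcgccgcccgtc
AARS promoter, chr16:70289507-70289756, minus strand: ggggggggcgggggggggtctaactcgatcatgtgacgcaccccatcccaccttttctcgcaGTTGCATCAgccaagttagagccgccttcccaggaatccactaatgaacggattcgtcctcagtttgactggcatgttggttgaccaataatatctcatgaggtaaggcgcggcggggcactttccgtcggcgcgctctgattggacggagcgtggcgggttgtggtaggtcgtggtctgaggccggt

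The capitals lie 210 to 202 bases before the start in CHAC1, 68 to 60 in ASNS and 188 to 180 in AARS, and in CHAC1 and AARS they match on the opposite strand. CHAC1 (chr15:40953471-40956512), which degrades glutathione, had 87.7, 59.3 and 91.5 with MI-503 against 143, 171 and 136 with DMSO in MOLM13, and 142, 172 and 211 against 3549, 3347 and 3455 in OCI-AML3. It fell 1.9-fold and 19.9-fold (difference 3.39 ± 0.21, adjusted p = 2.06e-10). In RPM it started at 5.87 in MOLM13 and 57.3 in OCI-AML3 and ended at 3.11 and 3.02, so the treated lines were nearly level. ASNS, asparagine synthetase, fell in both lines, from 3468, 3394 and 3409 to 1939.7, 2168 and 2139.8 in MOLM13 and from 20465, 19239 and 19307 to 3465, 3348 and 3259.7 in OCI-AML3 (difference 1.83 ± 0.05, adjusted p = 1.10e-14). AARS, the alanyl-tRNA synthetase, stood at 10879, 10807 and 10934 with DMSO against 11014, 11061 and 11200.4 with MI-503 in MOLM13, a log2 ratio of 0.03 that did not pass (adjusted p = 0.314), and went from 31181, 29446 and 30573.5 to 12524, 12613 and 12709.7 in OCI-AML3 (difference 1.30 ± 0.03, adjusted p = 2.03e-15).

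The serine synthesis genes followed. PHGDH (chr1:119711934-119744215), the first enzyme of that pathway, had 5440.3, 5429 and 5576 with DMSO against 4621.5, 4611 and 4786 with MI-503 in MOLM13 and 13891, 12603 and 13063 against 1081, 1283 and 1238 in OCI-AML3, an 11.0-fold fall in the latter against 1.17-fold in the former. With DMSO the lines had about the same PHGDH, 215 and 219 RPM, and with MI-503 183 and 20.7 (difference 3.23 ± 0.07, adjusted p = 1.47e-16). PSAT1 and PSPH, the next enzymes, differed by 2.05 and 0.59, and the mitochondrial folate enzymes ALDH1L2, MTHFD2 and SHMT2 by 2.90, 1.00 and 0.66. SLC7A11, the cystine and glutamate exchanger, rose in MOLM13 (below 0 as deposited), from 2291, 2418.5 and 2009 to 2417, 3166 and 3079.9, with ranges that overlapped by 1 library, and fell 7.93-fold in OCI-AML3, from 16474, 15161 and 15974.5 to 2102, 1967 and 1933 (difference 3.35 ± 0.11, adjusted p = 4.62e-14). The tRNA synthetases WARS, SARS and GARS differed by 1.65, 1.14 and 1.14. ATF4 itself fell by 0.20 in MOLM13 and 1.01 in OCI-AML3 (difference 0.81, adjusted p = 6.12e-13), and ATF3 was the single member whose difference did not pass (-0.14, adjusted p = 0.303). On the deposited scale all 24 fell in OCI-AML3, 21 fell and 0 rose in MOLM13, and 15 differences passed as higher in MOLM13. Of all genes, 4.75% passed as higher there.

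Cholesterol synthesis genes rose in MOLM13 and moved little in OCI-AML3. These enzymes turn acetyl-CoA into cholesterol under the control of SREBF2, which is activated when sterols run low. In MOLM13 23 of 24 tested members rose and 0 fell (median 1.09), and in OCI-AML3 10 rose and 4 fell (median 0.12). The difference was higher in MOLM13 for 22 and lower for 1, where 32.4% and 30.5% of all genes passed. Its median was 0.87. With deposited values 14 rose and 1 fell in MOLM13, 2 rose and 0 fell in OCI-AML3 (median -0.04), and 8 differences were higher and 1 lower. Of all genes, 4.75% were higher and 20.0% lower with those values. HMGCS1 (chr5:43287470-43313412), which makes HMG-CoA, went from 3605, 4347 and 4299.8 to 14720.5, 19454 and 21169 in MOLM13 and from 5377, 5862 and 5786 to 7600.0, 7333.5 and 7049 in OCI-AML3, rises of 4.48-fold and 1.29-fold (difference 1.79 ± 0.13, adjusted p = 2.09e-09). MOLM13 MI-503 replicate 1 was the lowest of its group for HMGCS1, and without it 22 members were higher and 1 lower as before. SQLE, squalene epoxidase, rose 2.75-fold in MOLM13, from 2017, 2227 and 2209 to 5284, 6041 and 6443, and stood at 9649, 10322 and 10338 against 9979, 9896 and 9881 in OCI-AML3, where treatments overlapped (difference 1.48 ± 0.08, adjusted p = 1.67e-11). TM7SF2, MSMO1 and CYP51A1, later enzymes of the pathway, differed by 1.41, 1.18 and 1.37. SREBF2, which was level in MOLM13 as deposited, and LSS, which makes lanosterol, rose in MOLM13 and fell in OCI-AML3, with 1.11 and -0.23 for LSS. INSIG1, a sterol-sensing partner of the SREBF pathway, and STARD4, a sterol carrier, rose in both lines and more in MOLM13 (1.36 and 0.62, 1.14 and 0.86), and EBP did not pass the difference (0.08, adjusted p = 0.297). PMVK, phosphomevalonate kinase, was the member lower in MOLM13 (-0.33, adjusted p = 0.00137).

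**Figure D3:**
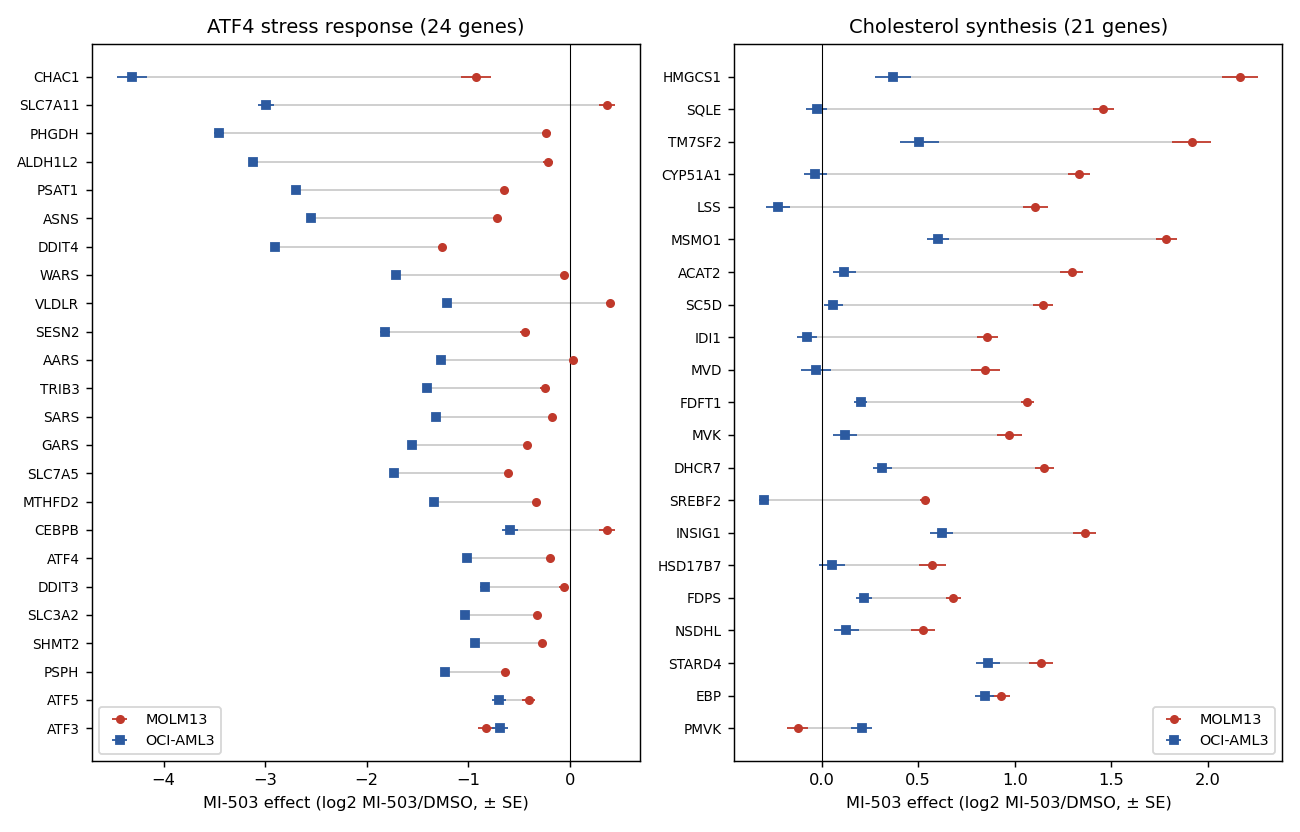
MI-503 to DMSO log2 ratio of every tested ATF4 response gene (left, 24 genes) and of 21 of the 24 tested cholesterol synthesis genes (right) in MOLM13 (red circles) and OCI-AML3 (blue squares), with SE bars and genes ordered by the gap between the lines. ATF4 genes lie left of 0 in OCI-AML3, down to -4.31 for CHAC1, and cholesterol genes other than PMVK lie right of 0 in MOLM13, up to 2.16 for HMGCS1.

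Interferon-stimulated genes were higher in MOLM13 for 15 of 21 tested members and lower for 3 (median 0.62), where 32.4% and 30.5% of all genes passed. In MOLM13 10 rose and 6 fell, and in OCI-AML3 2 rose and 13 fell. MX1 and IFI44 stood at 1.58 in MOLM13 and -1.02 in OCI-AML3 and at 1.02 in MOLM13 and -1.73 in OCI-AML3 (differences 2.60, adjusted p = 1.74e-08, and 2.75, adjusted p = 0.000338), and IFI6 and OAS2 at 1.45 in MOLM13 and -0.40 in OCI-AML3 and at 0.46 in MOLM13 and -1.35 in OCI-AML3, the OAS2 value in MOLM13 being below 0 as deposited. ISG15, a ubiquitin-like modifier, went the other way, with -0.70 in MOLM13 and 0.94 in OCI-AML3 (difference -1.64, adjusted p = 2.33e-06), the same sense as the chemokine CXCL11. OAS1 and OAS3 fell further in MOLM13, so the list did not move as a unit. IFI44 was near the floor, at 0.435 RPM with DMSO and 0.94 with MI-503 in MOLM13 and 0.258 and 0.0806 in OCI-AML3. Its difference may therefore depend in part on the filter. In the deposited scaling 4 members rose and 8 fell in MOLM13 (median -0.37), and 6 differences were higher and 3 lower (all genes: 4.75% and 20.0%). CIITA (chr16:10866206-10943021), the transactivator of MHC class II genes, rose in both lines. Its values went from 14, 15.8 and 8.11 to 82.7, 84.6 and 83.6 in MOLM13 and from 23.9, 19.0 and 25.7 to 96.3, 101 and 105 in OCI-AML3, rises of 6.42-fold and 4.3-fold. The difference of 0.58 ± 0.30 did not pass (adjusted p = 0.101) but did without MOLM13 DMSO replicate 2 (0.75, adjusted p = 0.0337). HLA-DQB1 also rose in both lines, by 2.50 and 2.03, and CD74, the invariant chain, by 1.12 and 0.62. HLA-DQB1 was near the floor in OCI-AML3, at 0.064 RPM with DMSO and 0.284 with MI-503, against 1.06 and 6.24 in MOLM13. Its rise in OCI-AML3 may therefore depend in part on the filter. Of 12 listed class II genes, 3 were tested and 8 were kept in neither line. Of 29 lysosomal genes, 24 rose and 2 fell in MOLM13 and 15 rose and 8 fell in OCI-AML3. The difference was higher in MOLM13 for 17 and lower for 7 (4 to 6 with any 1 library left out), with a median of 0.34. Of all genes, 32.4% were higher and 30.5% lower. On the deposited scale the median was -0.03, and 0 differences were higher and 1 lower (all genes: 4.75% and 20.0%). There 4 genes rose and 4 fell in MOLM13, and 5 rose and 1 fell in OCI-AML3. LIPA, the lysosomal acid lipase, rose more in MOLM13, with a difference of 0.91 that did not pass on the deposited scale.

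The MI-503 to DMSO ratio of most listed genes of growth and division was lower in MOLM13 than in OCI-AML3. Of 25 mitotic genes, 19 rose and 0 fell in OCI-AML3 (median 0.25) and 4 rose and 11 fell in MOLM13 (median -0.06). The difference was lower in MOLM13 for 20 and higher for 2 (median -0.36). For this list and those below, 30.5% of all genes were lower and 32.4% higher. CENPE, a kinetochore motor, and CDC20, which activates the anaphase-promoting complex, stood at 0.08 in MOLM13 and 1.04 in OCI-AML3 and at -0.19 in MOLM13 and 0.73 in OCI-AML3 (differences -0.96, adjusted p = 2.06e-09, and -0.91, adjusted p = 7.76e-12). MKI67 and TOP2A did not follow (0.10, adjusted p = 0.382, and 0.15, adjusted p = 0.0193). Oxidative phosphorylation subunits rose in OCI-AML3 for 28 of 31 and fell for 3 (median 0.26), while in MOLM13 10 rose and 13 fell (median -0.07), and the difference was lower in MOLM13 for 26 and higher for 1, NDUFB9. SDHA, of complex II, fell by 0.62 in MOLM13 and rose by 0.11 in OCI-AML3, where it was below 0 as deposited (difference -0.73, adjusted p = 4.52e-11), and COX5B, of complex IV, stood at -0.08 in MOLM13 and 0.64 in OCI-AML3. MYC-driven and ribosome biogenesis genes fell in MOLM13 for 25 of 28 (median -0.32) and were mixed in OCI-AML3, with 7 up and 12 down (median -0.06). The difference was lower for 21 and higher for 2, with NOP16, SRM and RRP9 at -0.63, -0.58 and -0.56. Of 26 DNA replication genes, 22 fell in MOLM13 and 13 in OCI-AML3, and 15 differences were lower in MOLM13 and 3 higher (median -0.16). ORC6 and ORC1 differed by -0.57 and -0.54, PRIM1 and MCM6 by 0.49 and 0.48. Heat shock genes were lower in MOLM13 for 9 of 13 and higher for 0 (median -0.50), with HSPB1, a small chaperone, at -0.28 in MOLM13 and 1.01 in OCI-AML3 and the co-chaperone BAG3 at -0.08 in MOLM13 and 0.85 in OCI-AML3. Cytosolic ribosomal protein genes showed a small difference the other way (20 of 38 higher, 2 lower, median 0.12) that was -0.25 on the deposited scale, where 0 members passed. In that scaling 20.0% of all genes were called lower, and of these lists 13 of 25 mitotic, 17 of 31 oxidative phosphorylation, 12 of 28 ribosome biogenesis, 8 of 13 heat shock and, near that share, 6 of 26 replication genes. What did not stay was the direction within each line. On the deposited scale 23 mitotic genes fell in MOLM13 and 3 rose in OCI-AML3, and 25 oxidative phosphorylation genes fell in MOLM13 while 0 passed in either direction in OCI-AML3.

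**Figure D4:**
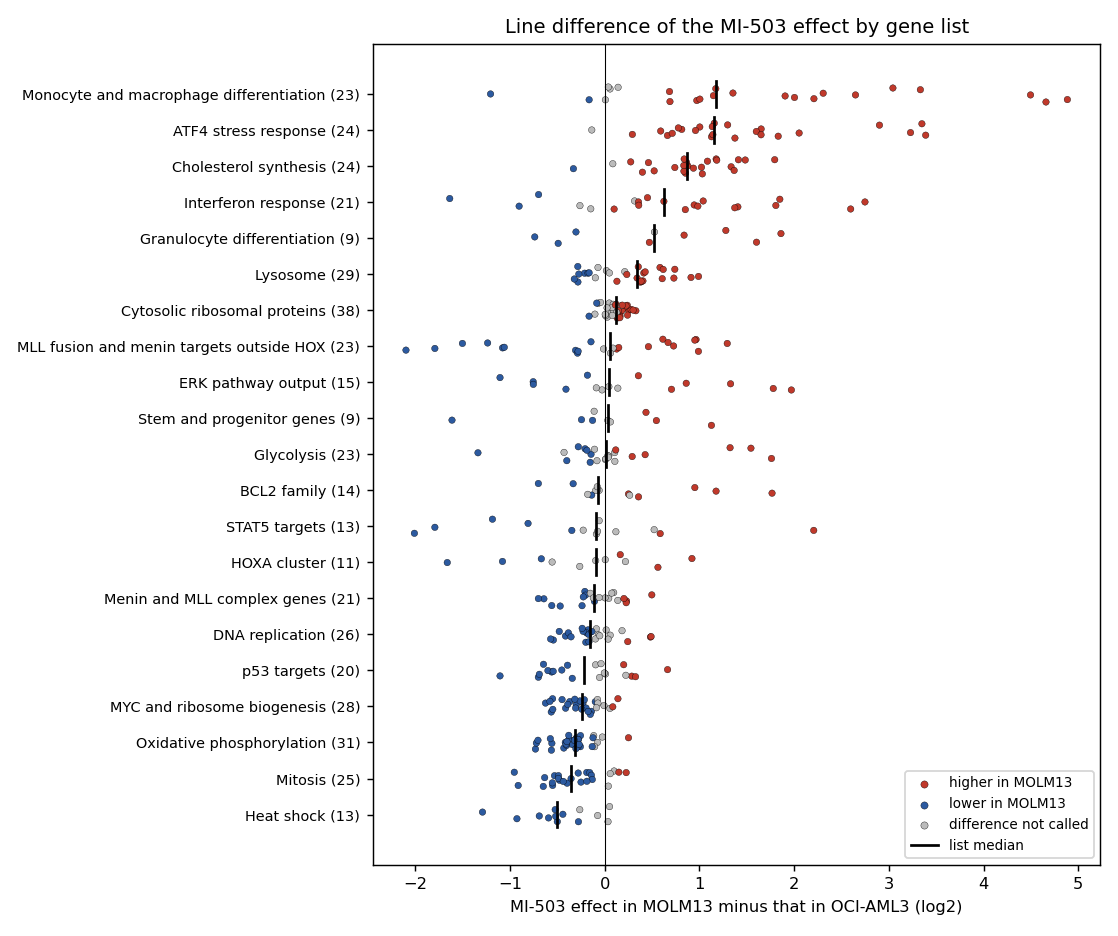
Difference of the MI-503 to DMSO log2 ratio, MOLM13 minus OCI-AML3, for every tested member of 21 gene lists (number tested in brackets), ordered by list median (black bar). Red and blue members passed as higher or lower in MOLM13. Monocyte, ATF4 and cholesterol lists lie to the right, with medians of 1.17, 1.15 and 0.87, and mitosis and heat shock lists to the left, with -0.36 and -0.50.

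p53 targets were lower in MOLM13 for 10 of 20 and higher for 4 (median -0.22). CDKN1A, which encodes the p21 cell cycle inhibitor, had values of 4076, 4058 and 4177 with DMSO against 3350.2, 3413 and 3276.5 with MI-503 in MOLM13 and 5763, 6119 and 5689 against 10071, 10379 and 10376.5 in OCI-AML3. It fell by 0.29 in MOLM13 and rose by 0.81 in OCI-AML3 (difference -1.11 ± 0.04, adjusted p = 3.66e-13). MDM2, the p53 ubiquitin ligase, BBC3, a BH3-only death protein, ZMAT3, FDXR and PLK3 showed the same pair of signs, for example -0.24 and 0.32 for MDM2. On the deposited scale 10 p53 targets were lower and 0 higher, 12 fell in MOLM13 and 1 rose in OCI-AML3. The BCL2 family held 5 higher and 3 lower of 14. The death gene BMF, the survival gene BCL2A1 and the death gene PMAIP1 (below 0 in both lines as deposited) rose in MOLM13 and fell in OCI-AML3, with differences of 1.77, 1.18 and 0.36. Among 13 STAT5 targets 2 were higher and 5 lower in MOLM13. BCL6, a transcriptional repressor that STAT5 holds down, stood at 1.48 in MOLM13 and -0.73 in OCI-AML3 (difference 2.21, adjusted p = 1.75e-11), and CISH, a feedback inhibitor, at -0.14 in MOLM13 and 1.05 in OCI-AML3 (difference -1.19, adjusted p = 4.60e-09). ERK output genes had 6 higher and 5 lower of 15. PHLDA1 stood at 0.97 in MOLM13 and -1.0 in OCI-AML3, the immediate early genes EGR1 and FOS rose by 2.47 and 2.13 in MOLM13 and 0.69 and 0.80 in OCI-AML3, and FOSL1 stood at -0.28 in MOLM13 and 0.83 in OCI-AML3. Of 9 stem and progenitor genes, 3 were higher and 3 lower, with GATA2 at -0.76 in MOLM13 and 0.85 in OCI-AML3 (difference -1.61, adjusted p = 9.54e-10) and CD38 at 0.98 in MOLM13 and -0.14 in OCI-AML3. Glycolysis genes had 6 higher and 7 lower of 23. With 32.4% of all genes higher and 30.5% lower, the counts of the BCL2 family, ERK, progenitor and glycolysis lists lie near the background. They are not a result about these lists, and the counts of the STAT5 list were not tested against these shares. PFKFB4 and PFKFB3, which set the level of the phosphofructokinase activator, were higher in MOLM13 by 1.76 and 1.54, and PFKM, a phosphofructokinase, was lower (-1.34, adjusted p = 1.24e-06).

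Shared changes were also present. In 804 genes both lines rose, and in 892 both fell, without a difference that passed, which does not show that the lines responded alike. FAP, a membrane serine protease, rose 4.96-fold in MOLM13, from 24.3, 27.6 and 28.4 to 128, 125 and 158, and 5.37-fold in OCI-AML3, from 211, 221 and 221 to 1239.6, 1085 and 1202 (difference -0.11 ± 0.15, adjusted p = 0.519), although the difference passed with a pseudocount of 8 (-0.33, adjusted p = 0.0418). SEPP1 (SELENOP), a selenium carrier, rose 4.93-fold and 5.33-fold (difference -0.11 ± 0.29, adjusted p = 0.75), and PRLR, the prolactin receptor, 9.38-fold and 6.18-fold (difference 0.60 ± 0.39, adjusted p = 0.186). PRLR had 2 to 7 reads per MOLM13 DMSO library, and its difference turned to -0.61 (adjusted p = 0.0194) with a pseudocount of 8. Without MOLM13 DMSO replicate 3 it was 1.08 (adjusted p = 0.000243). Among genes that fell in both lines, BATF3, an AP-1 family transcription factor, went from 278, 294 and 254 to 117, 139.6 and 111 in MOLM13 and from 1634, 1551 and 1605 to 684, 676 and 655.5 in OCI-AML3, falls of 2.25-fold and 2.37-fold (difference 0.08 ± 0.11, adjusted p = 0.544). TBC1D30, a Rab GTPase regulator, fell 3.83-fold and 5.81-fold (difference 0.60 ± 0.32, adjusted p = 0.105), and its difference passed without OCI-AML3 DMSO replicate 1 (0.85, adjusted p = 0.0181).

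MV411, which also carries an MLL fusion, received the same dose for 3 days in place of 4, so its values are set beside the others with no test between the lines. Of the 808 genes at least 2-fold higher in MOLM13 than in OCI-AML3, 745 were tested in MV411, where 309 rose (41.5%, against 31.9% of all genes tested in the 3 lines) and 273 fell (36.6%, against 33.8%). Of the 361 that were lower, 277 were tested, with 57 rises (20.6%) and 118 falls (42.6%). The genes of each set thus moved both ways in this line. CYBB, S100A8 and FGR rose in MV411, by 2.54, 2.50 and 1.34, and CSF1R by 0.31, while CR1 fell by 5.17 and LSP1 fell by 1.57. MEF2C, PBX3 and MEIS1 fell in MV411, by 2.81, 1.81 and 2.31, and HOXA9 by 1.88. The cholesterol list had 23 falls among 24 tested genes there (median -1.34), and the ATF4 list 22 falls and 1 rise (median -0.96).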

How the data were processed

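Polyadenylated RNA of MOLM13 and OCI-AML3 was sequenced in 3 libraries per group. Per the labels, the authors deposited normalised expression values, which are signal per gene scaled by 1 factor per library. The submitters' processing notes name DESeq version 2 and hg38. Aligner, counting program, annotation and strand are not given in the sources used here. An ERCC spike-in was added before extraction, per the labels' protocols. Spike-in reads were not analysed here, so the deposited scale could not be rebuilt and served as an alternative. The members and gene lists were chosen with earlier results of these data known.

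Each table was divided by its own median-of-ratios factors, because the tables had been normalised separately. Genes that reached a value of 10 in 3 or more libraries of each line were kept. limma 3.58.1 (R 4.3.3, variance trend) was fitted to log2(value + 1) of the 12 libraries as 4 group means, with Benjamini-Hochberg adjustment over all kept genes and a threshold of 0.05. MV411 was fitted alone. Whole reads were recovered from every deposited MOLM13 and OCI-AML3 value (tolerance 0.001) and gave depth, RPM, and tests with edgeR 4.0.16 and DESeq2 1.42.0, which called 4325 and 4052 genes higher and 3896 and 3812 lower. The limma test of the line difference was run on simulated reads with 200 changed genes. The other steps were not tested in this way.

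Named genes were a panel of known targets and maturation genes, the 12 with the largest difference per direction, up to 6 per direction with the largest opposite changes, up to 5 shared changes per direction and up to 3 members per list. Other list members named, such as those that moved against their list, were chosen after their values were seen. Coordinates and promoters are from RefSeq, GRCh38.p14. In a few list counts, genes belong to more than 1 list. A few list members are counted and are not reported here by name.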

Additional observations from a re-analysis of the deposited data

Results flagged for a closer look

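The effect of MI-503 differed between the lines with opposite signs, each passing within its line, for 1203 genes that rose in MOLM13 and fell in OCI-AML3 and for 1102 genes that fell in MOLM13 and rose in OCI-AML3. On the deposited scale these counts were 114 and 180. Among genes with a mean of at least 100 in a group, those with the largest opposite changes upward in MOLM13 had differences of 4.88 for CSF1R, 4.69 for FGR, 4.64 for ADAM28, 4.50 for CYBB, 3.52 for ALDH2 and 3.51 for FCGR2B. Those with the largest opposite changes downward in MOLM13 were EPHA2 at -5.01, NCAM2 at -3.18, TYRP1 at -3.12, PHLDB3 at -3.03, GEM at -2.71 and DLX3 at -2.30. Each was drawn to attention by the test of the difference between the lines.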

How the results depend on the processing

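Scaling mattered most. On the deposited scale 619 differences were higher in MOLM13 and 2599 lower, MOLM13 had 640 rises and 8357 falls, OCI-AML3 had 654 and 1821, opposite changes numbered 114 and 180, and differences of at least 2-fold 423 and 973. With equal totals 3598 differences were higher and 4755 lower (43.1% of calls higher, median -0.057). A minimum of 50 left 199 differences of at least 2-fold lower in MOLM13, and no filter gave 1237 higher and 686 lower of that size. Of 119 named genes, 96 kept their call on the deposited scale, 19 lost it with the same sign, RPL15, RPL22 and RPL5 lost it and turned to -0.044, -0.073 and -0.10, and GOLGA8R passed (-1.02, adjusted p = 0.0324). PRLR turned to -0.61 with a pseudocount of 8. HIST2H2BE lost its call in edgeR's quasi-likelihood test (adjusted p = 0.0877). The cause of these changes was not tested.

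Leaving out 1 library gave 3984 to 4281 higher and 3740 to 4045 lower differences, 3751 to 4175 rises and 3776 to 4320 falls in MOLM13, 3848 to 4288 and 3961 to 4347 in OCI-AML3, 1085 to 1241 and 967 to 1157 opposite changes, 728 to 815 and 328 to 368 differences of at least 2-fold, and in MV411 286 to 305, 243 to 264, 50 to 59 and 102 to 113 for the counts given above as 309, 273, 57 and 118. With the replicate number as a block 4152 differences were higher and 3937 lower, and of the named genes TBC1D30 (0.60, adjusted p = 0.0295) and GOLGA8R (-0.64, adjusted p = 0.0486) passed. Same-numbered libraries did not deviate together (correlations of 0.051, 0.075 and -0.008 in MOLM13 and -0.051, 0.070 and -0.075 in OCI-AML3), so the numbers were not read as pairs. Low read numbers limit, among others, EPHA2, ID3, GEM, PDYN, CR1 and PRLR in MOLM13, NFIA, BPI and HLA-DQB1 in OCI-AML3 and IFI44 in both lines.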

Other observations

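Some list members reached the minimum value in 1 line and not in the other, so their difference was not tested, and their levels are given as mean RPM with DMSO and then MI-503. The HOXB cluster was nearly silent in MOLM13, where each member stood at or below 0.213 RPM. In OCI-AML3, HOXB3 stood at 25.2 and 13.4, HOXB9 at 13 and 11, HOXB6 at 12.7 and 15.3, and HOXB4 at 10.5 and 10.2, so 9 of the 10 listed HOXB genes reached the minimum value in that line alone. HMGA2, a chromatin protein of immature cells, and SKIDA1 were present in MOLM13, at 31.4 and 9.99 and at 44.3 and 25.7, and were at or below 0.0555 in OCI-AML3.

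Of the monocyte and macrophage list, 6 genes were kept in OCI-AML3 alone. VCAN, a matrix proteoglycan made by monocytes, stood at 300 and 77.5 there, CD14, the lipopolysaccharide co-receptor, at 9.21 and 5.96, and CD163, a haemoglobin scavenger receptor, at 5.83 and 7.46. In MOLM13 each stood at or below 0.185 in both groups, so the rise of the tested monocyte genes described above did not bring these 3 markers to the level of OCI-AML3. KIT, the stem cell factor receptor, went from 0.585 to 2.80 in MOLM13, and HLA-DRA, a class II antigen chain, from 0.192 to 1.33.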
